A study of Mus musculus with 8 samples.

Results

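Genes for the recognition and uptake of apoptotic cells were followed in bone marrow-derived macrophages (BMDMs) of mice with and without a floxed Klf2 gene. The 10 genes were taken by name from a table of 23761 genes, by a list for their known roles that was drawn up with earlier results of these data known. They are Mertk, Axl, Stab1, Lrp1 and Cd300lf, which encode receptors, Gas6, Pros1 and Mfge8, which encode bridging molecules, and Elmo1 and Dock1, which encode partners in engulfment. Total RNA of BMDMs from 4 LysM and 4 K2KO mice, all 3 months old, was sequenced. LysM mice have the genotype LysM Cre/Cre, and K2KO mice are LysM Cre/Cre KLF2 flox/flox. Both groups thus carry Cre at both copies of the lysozyme M gene, so the control shares the loss of intact lysozyme M alleles, and Cre from this locus is active in macrophages and granulocytes. The marrow was grown in medium conditioned by L929 fibroblasts, and the sample descriptions mark all libraries as vehicle. The libraries are called LysM0 to LysM3 and K2KO0 to K2KO3 after the columns of the table, which name the genotype and not the mouse. The sample titles are numbered differently, so a library named here is not known to be the sample with the same title.

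Efferocytosis is the clearance of dying cells by phagocytes. Apoptotic cells expose phosphatidylserine, which some receptors bind directly and others bind through a soluble bridging molecule. Gas6 links phosphatidylserine to the receptor tyrosine kinases Mertk and Axl, protein S links it to Mertk, and Mfge8 links it to integrins. Engulfment signals meet at Elmo1 and Dock1, which activate Rac, and the corpse is then digested in the lysosome while its sterols activate nuclear receptors.

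Expression is given as FPKM, the fragments of a gene scaled to its transcript length and to the library. Listed levels can thus be set side by side between genes. The authors' FPKM summed to 497253 to 551608 in the LysM libraries and to 448235 to 501965 in the K2KO libraries. FPKM do not give the depth of a library. Since Gapdh never exceeded 0.4999 FPKM where Actb reached 1962 to 2949 FPKM, a gene listed at 0 was not read as absent or low. For the same reason, orders of level between genes hold for the listed values only. Klf2, the targeted gene, was at 44.1, 52.9, 64.7 and 72.8 FPKM in LysM0 to LysM3 and at 45.5, 41.6, 59.2 and 59.3 FPKM in K2KO0 to K2KO3. The groups overlapped, and the log2 fold change of Klf2 was -0.18 with a standard error (SE) of 0.17 (limma adjusted p = 0.460). The mRNA level therefore does not separate the genotypes, and since the exons that were deleted are not given in the sources used here, directions below refer to the libraries labelled K2KO. In bulk RNA, fewer cells of a type and less RNA per cell cannot be told apart.

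Of the listed genes, the 10920 whose FPKM averaged 1 or more were tested with limma as log2(FPKM + 0.1), and a gene was taken as changed at an adjusted p under 0.05 with an absolute log2 fold change over 0.26. The pseudocount of 0.1 makes fold changes of low genes smaller than their ratio of FPKM. Of all tested genes, 18.4% changed, 9.84% upward and 8.61% downward in the K2KO-labelled libraries. With the libraries scaled to one upper quartile, 64.1% of the changed genes were higher instead of 53.3%. All 10 genes of uptake passed this filter, and each exceeded 1 FPKM in every library. Of the 10 genes, 1 (Mertk) changed, and the other 9 did not pass the threshold. Regardless of fold change, an adjusted p under 0.05 was reached by 1 of the 10 genes, against 20.9% of all tested genes, and an unadjusted p under 0.05 by 3 (Mertk, Gas6 and Stab1), against 37.8%. The mean log2 value was higher in the libraries labelled K2KO for 5 of the 10 genes, against 51.8% of all tested genes. The median log2 fold change of the 10 genes was 0.01, as was that of all tested genes, and their median absolute log2 fold change was 0.16 against 0.17.

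Klf2 belongs to the Krüppel-like factors, which bind CACCC elements, so the 250 bases before the start of each gene in the RefSeq promoter table (GRCm38.p6) were searched for CACCC on either strand. The windows of Mertk, Axl and Gas6 are shown because Mertk was the changed receptor, Axl is its close relative and Gas6 is the ligand of both. They lie at chr2:128698665-128698914 (plus strand), chr7:25788734-25788983 (minus strand) and chr8:13494536-13494785 (minus strand), and capitals mark CACCC.
Mertk: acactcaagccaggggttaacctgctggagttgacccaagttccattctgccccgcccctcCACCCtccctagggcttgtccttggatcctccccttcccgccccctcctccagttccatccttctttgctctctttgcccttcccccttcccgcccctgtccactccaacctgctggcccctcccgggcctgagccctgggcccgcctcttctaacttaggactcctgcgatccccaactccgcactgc
Axl: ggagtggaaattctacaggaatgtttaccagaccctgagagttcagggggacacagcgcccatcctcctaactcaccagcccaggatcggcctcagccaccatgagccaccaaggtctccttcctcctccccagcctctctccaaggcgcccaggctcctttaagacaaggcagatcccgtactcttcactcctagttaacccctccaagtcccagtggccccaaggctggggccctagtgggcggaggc
Gas6: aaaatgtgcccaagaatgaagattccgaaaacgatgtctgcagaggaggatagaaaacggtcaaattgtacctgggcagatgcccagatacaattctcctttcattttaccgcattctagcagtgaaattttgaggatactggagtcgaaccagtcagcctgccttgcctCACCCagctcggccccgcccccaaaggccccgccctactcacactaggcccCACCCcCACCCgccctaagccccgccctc

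The window of Mertk holds 1 match, that of Gas6 holds 3 matches and that of Axl holds none. Among the other genes, Pros1 has 3 matches, Lrp1 has 2 matches and Cd300lf has 1 match. Elmo1 has 2 windows, of which 1 has a match, and the windows of Mfge8, Stab1 and Dock1 have none. In all, 6 of 11 windows hold the element, against 52% of the 32851 windows in the table, and 6.92% of all windows hold 3 matches or more. A match is a description of these letters and not a binding site, and no match says nothing about the factor.

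Mertk, on chromosome 2 from 128698956 to 128802894 on the plus strand, encodes the receptor tyrosine kinase best known for apoptotic cell uptake by macrophages. Its levels were 16.7, 13.5, 13.0 and 13.7 FPKM in LysM0 to LysM3 and 19.8, 19.2, 17.7 and 16.5 FPKM in K2KO0 to K2KO3. The LysM libraries other than LysM0 were below every library labelled K2KO, and LysM0 was just above K2KO3, so the groups overlapped. Mertk rose from 14.2 ± 1.68 to 18.3 ± 1.4998 FPKM (SD, n = 4 each), a 1.28-fold difference. The log2 fold change was 0.36 (SE 0.09, 95% interval 0.15 to 0.57, limma adjusted p = 0.0285), and the exact two-sided permutation test gave p = 0.0571, where the smallest possible p is 0.0286. After each library was corrected for the GC content and length of transcripts the log2 fold change was 0.28 and no longer passed (adjusted p = 0.0752), and it passed in 2 of 8 fits without one library, those without LysM0 and without K2KO3.

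Axl, the sister receptor that also binds Gas6, lies on chromosome 7 from 25757273 to 25788705 on the minus strand. It was at 42.2, 54.5, 49.2 and 43.0 FPKM in LysM0 to LysM3 and at 47.9, 50.1, 45.8 and 51.4 FPKM in K2KO0 to K2KO3. All values of the libraries labelled K2KO lay within the range of the LysM libraries. The log2 fold change of Axl was 0.05 (SE 0.09, adjusted p = 0.674), with a 95% interval from -0.14 to 0.25. Tyro3, the third receptor of the family, was listed at no more than 0.0243 FPKM in any library.

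The ratio of Mertk to Axl within a library is free of the scaling of that library. It was 0.396, 0.248, 0.264 and 0.320 in LysM0 to LysM3 and 0.413, 0.383, 0.385 and 0.320 in K2KO0 to K2KO3. LysM0 lay among the libraries labelled K2KO, and LysM3 and K2KO3 were nearly equal. The log2 ratio differed by 0.31 between the groups (exact two-sided permutation test, p = 0.171, adjusted p = 0.514 over 3 ratios), so a change of Mertk relative to Axl was not shown.

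Stab1 encodes stabilin-1, a scavenger receptor that binds phosphatidylserine directly, and lies on chromosome 14 from 31139013 to 31168641 on the minus strand. LysM0 to LysM3 had 121, 105, 117 and 109 FPKM, and K2KO0 to K2KO3 had 107, 98.3, 95.05 and 100.3 FPKM. Only LysM1 and K2KO0 were out of order. The means were 113 ± 7.40 and 100.1 ± 4.96 FPKM (SD, n = 4 each), and the log2 fold change of -0.17 (SE 0.07, adjusted p = 0.0918) did not pass the threshold. An exon of Nt5dc2 on the other strand overlaps Stab1 by 112 bases, and that gene reached 52.3 FPKM. Although the library kit keeps the strand per the methods, whether the counting used it is not stated. The share of Nt5dc2 reads in the value of Stab1 is thus unknown. Exons on the other strand also overlap Elmo1 by 403 bases (Gm32036) and Gas6 by 34 bases (Tmem255b). Neither of those genes is listed, so their levels are unknown.

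Lrp1 encodes a large endocytic receptor that binds calreticulin on dying cells, and lies on chromosome 10 from 127538161 to 127621148 on the minus strand. Its levels were 70.5, 64.0, 53.4 and 56.7 FPKM in the LysM libraries and 56.4, 63.5, 56.2 and 62.4 FPKM in those labelled K2KO. The values were interleaved, and the log2 fold change was -0.03 (SE 0.09, adjusted p = 0.8288), which turned to 0.01 with upper-quartile scaling and 0.08 with quantile normalization.

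Cd300lf, which encodes a phosphatidylserine-binding receptor of the CD300 family, lies on chromosome 11 from 115116214 to 115133992 on the minus strand. LysM0 to LysM3 had 13.0, 17.7, 10.0006 and 15.3 FPKM, and K2KO0 to K2KO3 had 15.1, 5.28, 10.7 and 18.2 FPKM. K2KO1 was the lowest and K2KO3 the highest of all 8 libraries. Cd300lf was the most variable of the 10 genes, with a coefficient of variation of 23.4% in the LysM libraries and 45.6% in those labelled K2KO. Its log2 fold change of -0.29 (SE 0.35, adjusted p = 0.561) had a 95% interval from -1.07 to 0.49 and was 0.06 without K2KO1. The values are uncertain, because a stretch of 342 bases is 95.3% identical to Cd300ld and reads there could have been split between the pair. Cd300ld itself was at 20.6 to 34.3 FPKM and did not pass the threshold (log2 fold change -0.15, adjusted p = 0.480).

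**Figure D1:**
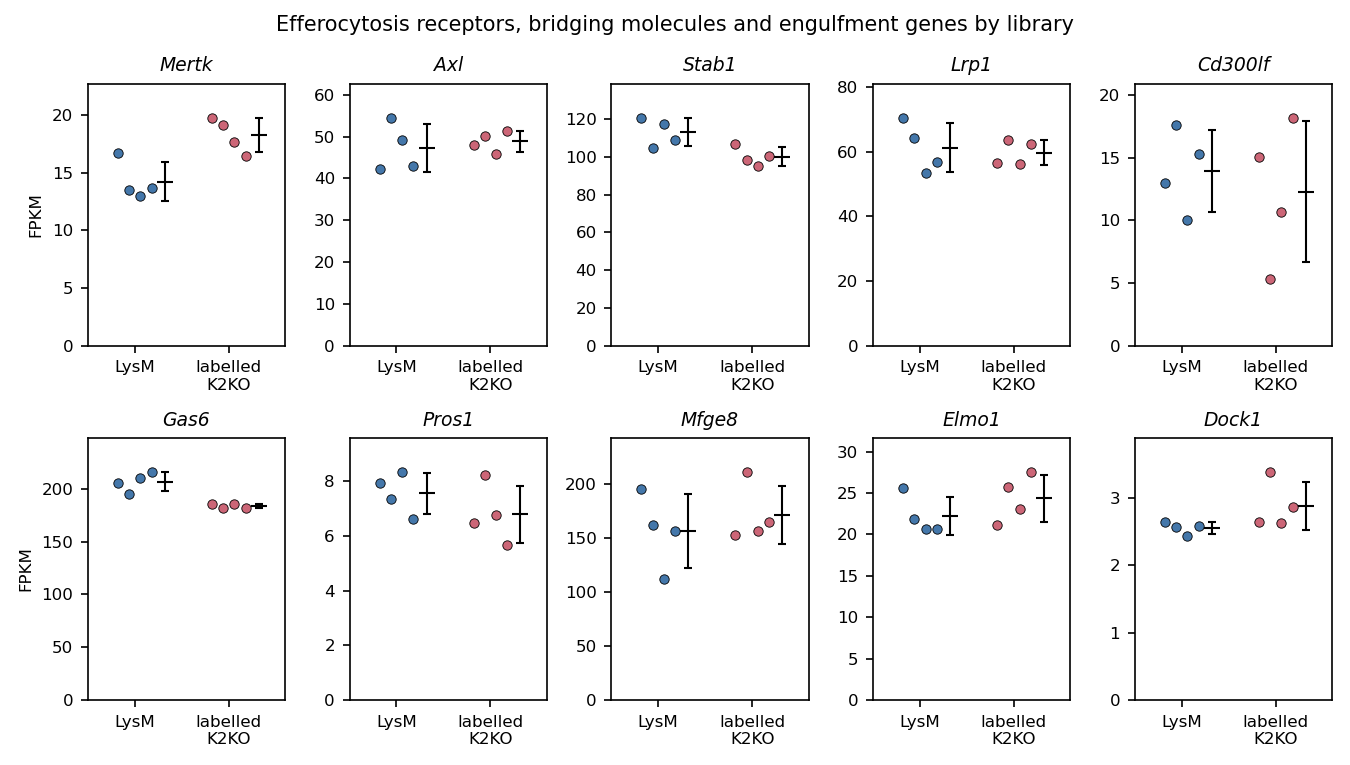
FPKM of the 10 genes in each of the 8 libraries, with blue points for LysM0 to LysM3, red points for K2KO0 to K2KO3 from left to right, and a bar for the mean and SD of each group (n = 4). Each panel has its own axis from 0. Gas6 is the one gene whose groups do not overlap, at 195 to 216 FPKM against 182 to 186 FPKM, and the Cd300lf points of the libraries labelled K2KO spread from 5.28 to 18.2 FPKM.

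Gas6 encodes the bridging molecule that binds Mertk and Axl, and had the highest mean of the 10 genes over the 8 libraries. In K2KO1, Mfge8 was above it (211 against 182 FPKM). It lies on chromosome 8 from 13465374 to 13494490 on the minus strand. LysM0 to LysM3 had 205, 195, 211 and 216 FPKM, and K2KO0 to K2KO3 had 186, 182, 186 and 182 FPKM. The highest K2KO-labelled value was under the lowest LysM value, and such a separation held for 23.1% of all tested genes in one direction or the other and for 10.2% with the libraries labelled K2KO lower. The means were 207 ± 8.73 and 184 ± 1.99 FPKM (SD, n = 4 each), and the exact two-sided permutation test gave its smallest possible p of 0.0286. The log2 fold change was -0.17 (SE 0.06, 95% interval -0.29 to -0.04, limma adjusted p = 0.0585), so Gas6 missed the threshold on both criteria. It was -0.06 after correction for GC content and length and 0.00049 after quantile normalization.

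Pros1, which encodes protein S, another ligand of Mertk, lies on chromosome 16 from 62854307 to 62929346 on the plus strand. Its levels were 7.94, 7.36, 8.33 and 6.61 FPKM in the LysM libraries and 6.48, 8.21, 6.77 and 5.68 FPKM in those labelled K2KO. The groups overlapped, with K2KO1 as high as the upper LysM libraries, and the log2 fold change was -0.16 (SE 0.11, adjusted p = 0.325). Gas6 was 22.2 to 32.7 times as abundant as Pros1 in every library, and the log2 ratio of the pair differed by -0.01 between the groups (exact two-sided permutation test, p = 1).

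Mfge8 encodes lactadherin, which links phosphatidylserine to integrins, and lies on chromosome 7 from 79133768 to 79149060 on the minus strand. It was at 195, 162, 112 and 157 FPKM in LysM0 to LysM3 and at 153, 211, 156 and 164 FPKM in K2KO0 to K2KO3. LysM2 was the lowest and K2KO1 the highest, with the rest interleaved. The log2 fold change of 0.14 (SE 0.17, adjusted p = 0.550) was -0.01 without LysM2.

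Elmo1 lies on chromosome 13 from 20090596 to 20608353 on the plus strand, and Dock1 on chromosome 7 from 134670654 to 135173639 on the plus strand. Elmo1 was at 25.6, 21.9, 20.7 and 20.7 FPKM in the LysM libraries and at 21.1, 25.8, 23.1 and 27.5 FPKM in those labelled K2KO. The groups overlapped through LysM0 and K2KO0, and the log2 fold change was 0.13 (SE 0.10, adjusted p = 0.362). Dock1, the least abundant of the 10 genes, was at 2.63, 2.56, 2.43 and 2.57 FPKM in the LysM libraries and at 2.64, 3.38, 2.62 and 2.86 FPKM in those labelled K2KO. Here LysM0 lay above K2KO2 by a small margin, and the log2 fold change was 0.16 (SE 0.10, adjusted p = 0.252). After correction for GC content and length the log2 fold changes were 0.002 for Elmo1 and 0.04 for Dock1. Elmo1 was 7.63 to 9.72 times as abundant as Dock1, and the log2 ratio of the pair differed by -0.03 between the groups (exact two-sided permutation test, p = 0.743, adjusted p = 1 over 3 ratios).

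**Figure D2:**
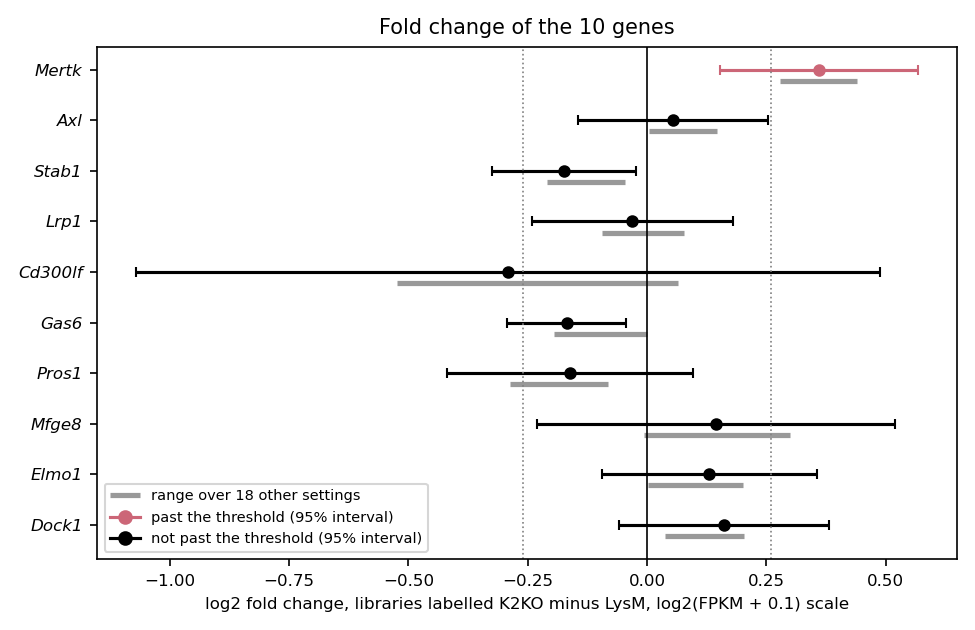
Log2 fold change of each gene, libraries labelled K2KO minus LysM, on the log2(FPKM + 0.1) scale, with the 95% interval of the limma fit in red where the gene passed the threshold and in black where it did not. Grey bars span the values over 10 other settings and 8 fits without one library, and dotted lines mark 0.26 in either direction. Mertk lies at 0.36 with all its grey values above 0.26. Gas6, Lrp1, Mfge8 and Cd300lf have grey bars that cross 0, that of Gas6 only just. Those of Elmo1 and Axl end just above 0, at 0.0020 and 0.0037.

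Levels over all 8 libraries ran from 195 FPKM for Gas6 to 2.71 FPKM for Dock1, a 72.1-fold span. Between them came Mfge8 at 164 FPKM, Stab1 at 107 FPKM, Lrp1 at 60.4 FPKM, Axl at 48.0 FPKM, Elmo1 at 23.3 FPKM, Mertk at 16.3 FPKM, Cd300lf at 13.1 FPKM and Pros1 at 7.17 FPKM. Neighbours whose ranges over the libraries did not overlap were Stab1 and Lrp1, Axl and Elmo1, Elmo1 and Mertk, and Pros1 and Dock1. Lrp1 exceeded Axl in all 8 libraries although their ranges overlapped. Gas6 exceeded Mfge8, Mfge8 exceeded Stab1, and Cd300lf exceeded Pros1 in 7 of the 8 libraries each. The order of Mertk and Cd300lf is not settled, since Mertk was higher in 5 of the 8 libraries.

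The genes most like Mertk were sought by the root mean square (RMS) difference of the centred log2(FPKM + 0.1) profile over the 8 libraries. They were Wipf1 with an RMS difference of 0.047, Nsdhl with 0.048 and Cyth3 with 0.052, against a SD of 0.22 for the profile of Mertk itself. For Axl, whose own profile had a SD of 0.12, they were Pars2 at 0.050, Ndc1 at 0.052 and Gm15800 at 0.066. None of these 6 genes is among the genes of uptake considered here.

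Another 95 genes of apoptotic cell uptake were sorted by role, of which 94 were listed and 80 passed the filter. Of the 80 genes, 7 rose and 10 fell in the libraries labelled K2KO, or 21.25% against 18.4% of all tested genes, and their median log2 fold change was 0.01. The components of C1q fell and the other roles each held 1 to 4 changed genes. Upper-quartile scaling changed this split to 12 genes up and 6 down, and without a filter on low values 2 of the 17 genes (Nr1h3 and Dnase2a) passed.

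**Figure D3:**
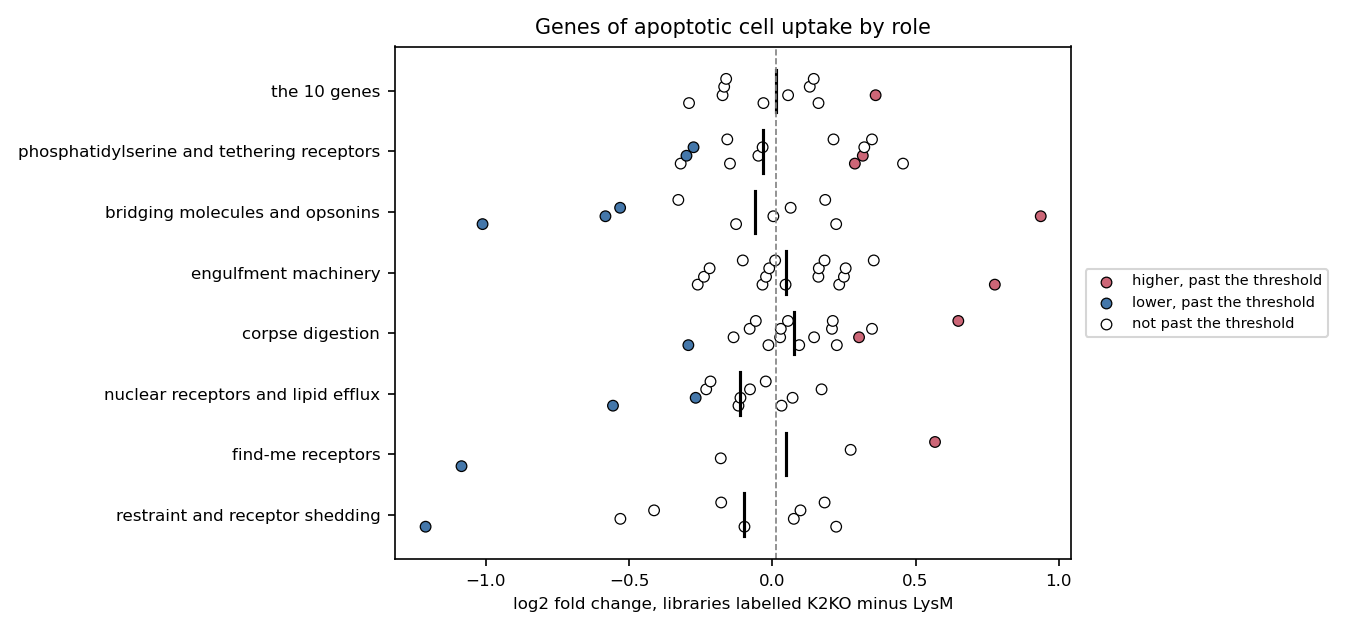
Log2 fold change on the log2(FPKM + 0.1) scale, libraries labelled K2KO minus LysM, of each tested gene of apoptotic cell uptake (points) by role, with red points for genes that rose, blue points for genes that fell and white points for the rest. Short black lines mark the median of each role and the dashed line the median of all tested genes, 0.01. The 3 blue points of the bridging molecules and opsonins are C1qa at -1.01, C1qc at -0.58 and C1qb at -0.53.

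Among 12 bridging molecules and opsonins, 10 were tested, of which 1 rose and 3 fell. The 3 that fell encode the chains of C1q, the complement protein that opsonizes apoptotic cells, and they lie next to each other on chromosome 4. C1qa was at 2215, 2554, 2869 and 3102 FPKM in LysM0 to LysM3 and at 1346, 1052, 1292 and 1664 FPKM in K2KO0 to K2KO3. The lowest LysM library was above the highest library labelled K2KO, and the same held for C1qb and C1qc. C1qa fell to 0.499 times its LysM level, from 2685 ± 386 to 1338 ± 252 FPKM (SD, n = 4 each), with a log2 fold change of -1.01 (SE 0.15, limma adjusted p = 0.00772) that passed in all 8 fits without one library. C1qb went from 4753 ± 455 to 3292 ± 364 FPKM (log2 fold change -0.53, SE 0.11, adjusted p = 0.0148), and C1qc from 3515 ± 232 to 2355 ± 272 FPKM (log2 fold change -0.58, SE 0.10, adjusted p = 0.0112). The transcripts of these genes have a GC content of 57.4 to 59.5%, and after quantile normalization the log2 fold changes were -0.68 for C1qa, -0.26 for C1qb and -0.26 for C1qc, with C1qb no longer past the threshold (adjusted p = 0.0570). The correction for GC content and length left -0.78 for C1qa, -0.33 for C1qb and -0.39 for C1qc, all past the threshold (adjusted p = 0.0102, 0.0337 and 0.0200), and with the replicate block added C1qb did not pass (adjusted p = 0.0567). Without one library, C1qb passed in 6 of 8 fits and C1qc in 7.

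Thbs1, which encodes thrombospondin-1, a bridge to Cd36 and integrins, was the opsonin that rose. It was at 37.6, 58.7, 30.9 and 45.3 FPKM in LysM0 to LysM3 and at 103.8, 50.1, 92.5 and 86.7 FPKM in K2KO0 to K2KO3. K2KO1 lay within the LysM range, and the other 3 libraries labelled K2KO were above it. The log2 fold change was 0.94 (SE 0.25, adjusted p = 0.0320), and it passed in 2 of 8 fits without one library and in 6 of 10 other settings. Lgals3, the most abundant gene of this role at 6494 to 8633 FPKM, did not pass (log2 fold change 0.06, adjusted p = 0.739). Calr, which encodes the eat-me signal calreticulin, was at 208 ± 16.6 and 209 ± 21.2 FPKM (SD, n = 4 each).

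Of 19 other phosphatidylserine and tethering receptors, 13 were tested, of which 2 rose and 2 fell. Msr1, a class A scavenger receptor, rose from 16.6 ± 0.609 to 20.8 ± 1.88 FPKM with no overlap (log2 fold change 0.32, SE 0.07, adjusted p = 0.0208). Cd300lb, another CD300 receptor, rose from 75.5 ± 6.02 to 92.3 ± 8.57 FPKM (log2 fold change 0.29, SE 0.08, adjusted p = 0.0415), a call kept in 5 of 10 other settings. Trem2, a lipid-sensing receptor, fell from 2021 ± 81.6 to 1650 ± 198 FPKM (log2 fold change -0.30, SE 0.09, adjusted p = 0.0493), although quantile normalization gave 0.0074 and 2 of 10 other settings kept the call. Scarf1, a receptor for C1q on apoptotic cells, fell from 36.8 ± 1.80 to 30.5 ± 3.57 FPKM (log2 fold change -0.28, SE 0.09, adjusted p = 0.0493). The correction for GC content and length lowered Msr1 to a log2 fold change of 0.11 (adjusted p = 0.301) and brought Scarf1 to -0.16 (adjusted p = 0.203), so neither passed, and Scarf1 passed in 2 of 10 other settings. Of these 4 genes Msr1 passed in 5 of 8 fits without one library, Cd300lb in 2, Trem2 in 1 and Scarf1 in 1. Cd14, which tethers dying cells, was the most abundant gene of this role that did not pass (log2 fold change -0.32, adjusted p = 0.0630). The receptors Tyro3, Timd4, Havcr1, Adgrb1 and Megf10 were below 0.1 FPKM in every library.

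Of 20 genes of the engulfment machinery, 17 were tested and 1 rose. This was Crkl, an adaptor upstream of Dock1, at 3.42 ± 0.606 and 6.01 ± 1.45 FPKM (SD, n = 4 each), with a log2 fold change of 0.78 (SE 0.19, adjusted p = 0.0239). LysM0 at 4.30 FPKM was above K2KO3 at 4.07 FPKM, and Crkl passed in 2 of 8 fits without one library. Cdc42, a regulator of actin and the most abundant gene of this role, did not pass (log2 fold change -0.03, adjusted p = 0.760). Gulp1 was listed at 0 in all 8 libraries.

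Corpse digestion was represented by 18 genes, of which 16 were tested, 2 rose and 1 fell. Rab5a, the GTPase of early phagosomes, was at 14.4, 11.4, 11.0 and 10.5 FPKM in LysM0 to LysM3 and at 20.2, 19.5, 20.5 and 14.4 FPKM in K2KO0 to K2KO3. LysM0 and K2KO3 nearly met, and the other libraries were well apart. Rab5a rose with a log2 fold change of 0.65 (SE 0.13, adjusted p = 0.0159), and passed in 5 of 8 fits without one library. Ctsl, a lysosomal protease, rose from 1219 ± 73.1 to 1507 ± 151 FPKM (log2 fold change 0.30, adjusted p = 0.0399). The log2 fold change of Ctsl was 0.12 after correction for GC content and length (adjusted p = 0.347) and 0.58 after quantile normalization, and it passed in 1 of 8 fits without one library. Dnase2a, the nuclease that degrades the DNA of engulfed cells, fell from 200.4 ± 7.52 to 164 ± 10.7 FPKM (log2 fold change -0.29, adjusted p = 0.0204). It passed in 3 of 8 fits without one library and was at -0.14 after quantile normalization (adjusted p = 0.0965). Lamp1, a lysosomal membrane protein, was at 1156 to 1327 FPKM and did not pass (log2 fold change 0.05). Ctsd was listed at 0 throughout.

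Nuclear receptors and lipid efflux were represented by 11 listed genes, all tested, of which none rose and 2 fell. Nr1h3, which encodes the sterol sensor LXRα that engulfed cells activate, was at 32.1, 30.3, 26.5 and 29.0 FPKM in LysM0 to LysM3 and at 20.1, 23.1, 19.4 and 17.6 FPKM in K2KO0 to K2KO3. The groups did not overlap. Nr1h3 fell from 29.4 ± 2.35 to 20.04 ± 2.32 FPKM (log2 fold change -0.56, SE 0.09, adjusted p = 0.0109), and it passed in all 10 other settings and all 8 fits without one library. Abca7, a lipid transporter that aids phagocytosis, fell with a log2 fold change of -0.27 (adjusted p = 0.0257), which passed in 5 of 10 other settings and in 1 of 8 fits without one library. Ucp2, a mitochondrial carrier, was under the fold threshold (log2 fold change -0.23, adjusted p = 0.0466).

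Find-me receptors sense signals that dying cells release, and of 5 such genes 4 were tested, 1 rose and 1 fell. Cx3cr1, the fractalkine receptor, fell from 4.71 ± 0.995 to 2.26 ± 0.908 FPKM (log2 fold change -1.09, SE 0.26, adjusted p = 0.0239), with K2KO3 at 3.50 FPKM just under the lowest LysM library at 3.81 FPKM, and passed in 2 of 8 fits without one library. S1pr1, a receptor for sphingosine-1-phosphate, rose from 21.6 ± 3.13 to 32.1 ± 4.11 FPKM (log2 fold change 0.57, SE 0.12, adjusted p = 0.0178) and passed in 5 of 8. Gpr132, a receptor for lysolipids, did not pass (log2 fold change -0.18, adjusted p = 0.142).

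The 9 genes that restrain uptake or shed its receptors were tested, and 1 fell. Siglece, an inhibitory lectin, was at 6.52, 5.16, 10.9 and 9.93 FPKM in LysM0 to LysM3 and at 3.81, 3.47, 2.80 and 3.21 FPKM in K2KO0 to K2KO3. All libraries labelled K2KO were below the LysM range, and the log2 fold change was -1.21 (SE 0.22, adjusted p = 0.0126), which passed in 7 of 8 fits without one library. Sirpa, the receptor of the don't-eat-me signal Cd47, did not pass (log2 fold change -0.10, adjusted p = 0.349). Adam17, the main sheddase of Mertk, was at 40.5 ± 2.36 and 43.4 ± 3.73 FPKM (adjusted p = 0.356).

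**Figure D4:**
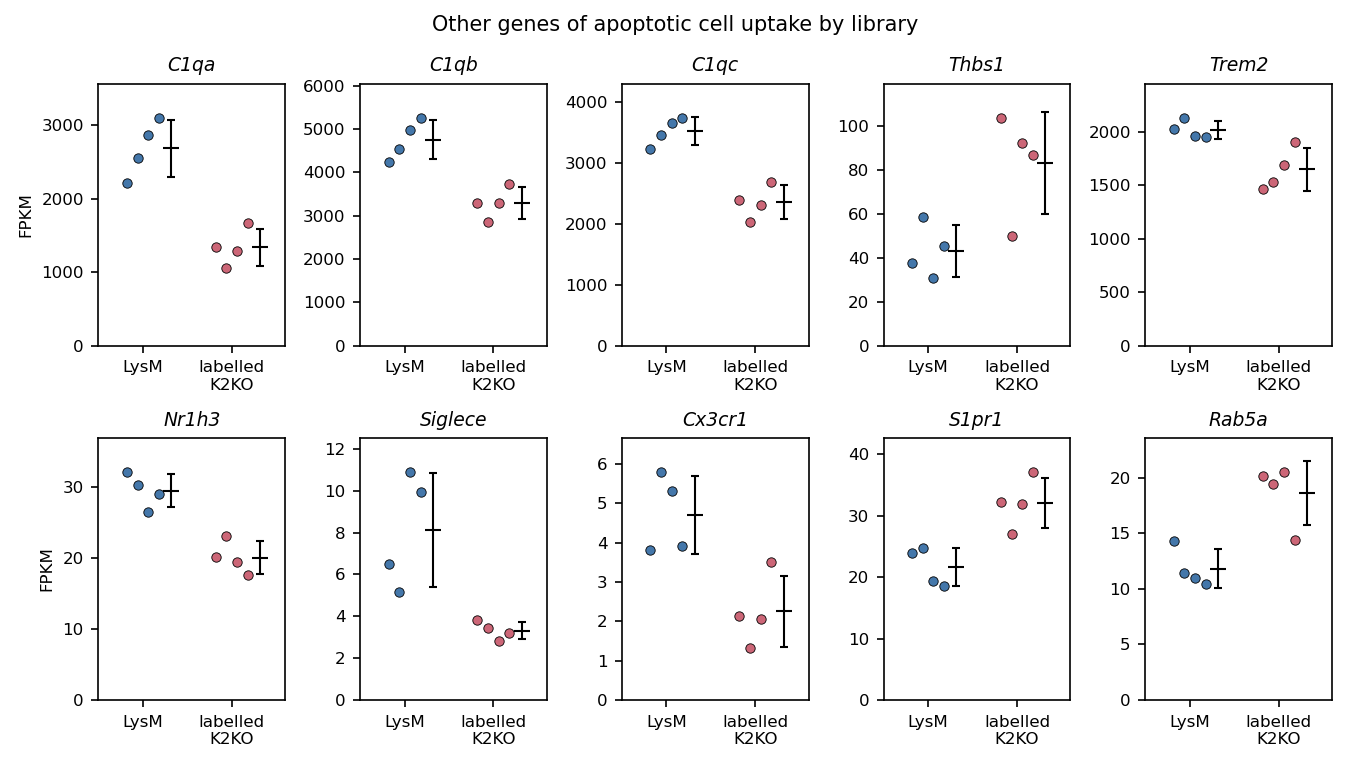
FPKM in each of the 8 libraries of 10 other genes of apoptotic cell uptake that passed the threshold, with blue points for LysM0 to LysM3, red points for K2KO0 to K2KO3 and a bar for the mean and SD of each group (n = 4). Each panel has its own axis from 0. C1qa, C1qb, C1qc, Trem2, Nr1h3, Siglece and Cx3cr1 lie lower in every library labelled K2KO, and 1 library labelled K2KO lies within the LysM range of Thbs1.

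The macrophage label was checked against 9 markers, all of them expressed. Their summed level was 4180 to 4402 FPKM in the LysM libraries and 3911 to 4053 FPKM in those labelled K2KO, with no overlap. The exact two-sided permutation test gave p = 0.0286, the smallest possible (adjusted p = 0.229 over the 8 marker sums tested). This sum was not scaled to the total FPKM of each library, so a lower sum is not a lower share. That total was 497253 to 551608 in the LysM libraries and 448235 to 501965 in those labelled K2KO. Of the 9 markers, 3 (Adgre1, Csf1r and Mrc1) had slightly higher means in the libraries labelled K2KO and 6 had lower means. Cd14 had means of 1028 and 829 FPKM without overlap but did not pass (log2 fold change -0.32, adjusted p = 0.0630). Over the 10 other settings with all libraries, the log2 fold change of Cd14 ran from -0.32 to -0.017. Without Cd14 in the sum, the groups overlap. Cd68, the most abundant marker at 1637 to 1942 FPKM, did not pass the threshold. Lyz2, which marks the Cre locus, was the 1 marker that fell (log2 fold change -0.49, adjusted p = 0.0260), and it passed in 4 of 8 fits without one library. The part of the lower macrophage sum in the results above was not tested. The summed level of 10 neutrophil markers was 178 to 323 FPKM and did not separate the groups (exact two-sided permutation test, p = 0.971). Its most abundant gene was S100a9 at 85.4 to 170 FPKM, and Ly6g was at no more than 0.357 FPKM. Camp fell (log2 fold change -1.14, adjusted p = 0.0178) and passed in 5 of 8 fits without one library. Of the 8 neutrophil markers tested, the mean log2 value was higher in the libraries labelled K2KO for 4 and lower for 4.

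The 10 fibroblast and stromal cell markers summed to 1.11 to 4.40 FPKM, and 8 of the 10 stayed below 1 FPKM in every library. LysM values of Fn1, the most abundant, were 0.950 to 2.15 FPKM and K2KO-labelled values 0.412 to 0.740 FPKM, with no overlap. The means of the other 9 markers went the opposite way, with overlapping groups, such as Col1a1 at 0.0906 and 0.356 FPKM and Dcn at 0.271 and 0.691 FPKM, so the stromal sum joins opposite directions. The 7 lymphocyte markers summed to 0.439 to 2.87 FPKM, led by Cd79a. The 4 erythroid markers listed reached 0.122 to 1.35 FPKM, led by Hba-a1 with Hbb-bt listed at 0, and 5 mast cell and basophil markers reached 0.432 to 1.43 FPKM, led by Gata2. The means of all 5 were higher in the libraries labelled K2KO, and Kit, at 0.101 to 0.177 against 0.267 to 0.394 FPKM, was the one of them without overlap. The 8 dendritic cell markers summed to 50.0 to 82.1 FPKM, nearly all of it Cd83, and Zbtb46 and Xcr1 were near 0. Siglech was at 0.0658 to 0.295 FPKM in LysM and 0.339 to 0.712 FPKM in K2KO-labelled libraries without overlap. The means of Flt3, Ccr7, Cd209a, Clec9a and Cd83 were also higher in the latter, with overlapping groups. That of Zbtb46 went the other way, at 0.0816 FPKM in LysM and 0.0548 FPKM in K2KO-labelled libraries. Xcr1 was nearly equal, at 0.0261 and 0.0260 FPKM. The 7 osteoclast markers summed to 135 to 253 FPKM, led by Atp6v0d2 at 59.5 to 174 FPKM, with Ctsk at 25.4 to 50.5 FPKM and Acp5 at 25.4 to 39.2 FPKM, and Calcr was listed at 0. Ctsk and Acp5 also occur in macrophages, and none of the 5 osteoclast markers tested passed the threshold. Exact two-sided permutation tests of these 6 sums gave p-values from 0.0571 for mast cells and basophils to 0.886 for fibroblasts.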

How the data were processed

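BMDMs of 4 LysM and 4 K2KO mice were studied by RNA sequencing. Per the methods, the authors aligned reads to mm10 with TopHat2 and computed FPKM with Cufflinks, while the submitters' processing notes name STAR, Cufflinks and Cuffdiff. No versions are given in the sources used here. The authors deposited one table of FPKM for 23761 genes in 8 libraries without pooling, and 23645 genes were matched to GENCODE M21 (GRCm38). The labels and the methods name different RNA kits, and the rule by which genes were listed is not stated. The libraries come from separate mice per the methods, but columns were mapped to a genotype only. FPKM are not counts, so no counting error could be given. At most 64 of 2573 low genes compared shared one step ratio with LysM0, so depth was taken as unknown.

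Values were tested as log2(FPKM + 0.1) with limma 3.58.1 (intensity trend) in R 4.3.3 for genes averaging 1 FPKM or more, with Benjamini-Hochberg adjustment. The thresholds on adjusted p (0.05) and on log2 fold change (0.26) are those of the study. Single values and 3 ratios were tested by exact two-sided permutation of 4 against 4 libraries. The procedure was tested on simulated data for this comparison over 10920 genes: 85% of 200 genes changed by 1 on the log2 scale were recovered, and 3 of 173 calls were false. Changes as small as those of the 10 genes, or in as many genes as here, were not simulated. The recovery of changes near the threshold of 0.26 is thus not known. The 10 members and all lists were chosen with earlier results of these data known. From each list of other genes, up to 5 changed genes with the largest fold change and the most abundant other gene are named. The marker lists add their most abundant and changed genes and those listed at or near 0. Calr, Cd300ld, Adam17, Gapdh and Actb were named outside this rule after their values were seen. So were Tyro3, Timd4, Havcr1, Adgrb1 and Megf10, as role-list genes with low values, and Gulp1 and Ctsd, as role-list genes listed at 0. The same holds for markers whose groups did not overlap and others set beside them. Alternatives were other pseudocounts (1, 0.01), filters (0.1, none) and scalings (upper quartile, quantile), no intensity trend, correction for GC content and length by local regression (span 0.3), a replicate block, and leaving out each library. Of the lists, 1 gene of lipid efflux and 1 erythroid marker were not analysed here.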

Additional observations from a re-analysis of the deposited data

Results flagged for a closer look

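Rab5a was 14.4 FPKM in K2KO3, far below the other 3 libraries labelled K2KO at 19.5 to 20.5 FPKM, by Dixon's criterion for a distant value in a group of 4. Of 70 groups (35 genes) examined, 1 was marked, against 3.5 that chance gives.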

How the results depend on the processing

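FPKM give no depth, which limits what can be said of low genes such as Dock1. The number of changed genes, 2014, was 483 without a filter, 1095 with the GC and length correction and 864 with the replicate block and that correction, and ranged from 337 (without LysM3) to 2837 (without K2KO3) when one library was left out. It also fell more than 1.5 times without LysM1, LysM2, K2KO0, K2KO1 or K2KO2. The 17 changed genes of the role lists became 2 without a filter and 5 with the block and correction, and 2 (without LysM3) to 21 (without K2KO3) when one library was left out, with 4 to 9 without LysM1, LysM2, K2KO0, K2KO1 or K2KO2. For Mertk the log2 fold change missed the threshold without a filter (0.36, adjusted p = 0.0935) and with the correction (0.28), and ranged from 0.32 to 0.44 without one library (adjusted p = 0.0119 to 0.0938). The sign turned for Gas6 under quantile normalization (0.00049), for Lrp1 under upper-quartile (0.013) and quantile scaling (0.077) and without one library (-0.093 to 0.040), for Mfge8 (-0.0072 to 0.26) and Cd300lf (-0.52 to 0.064) without one library, and for Klf2 with the correction, alone or with the block (0.039 in each). The log2 ratio of Gas6 over Pros1 became 0.22 with quantile normalization and 0.22 with the correction and -0.082 to 0.092 without one library. That of Elmo1 over Dock1 became 0.0027 with a pseudocount of 1, 0.10 with quantile normalization and -0.091 to 0.024 without one library. Trem2 (0.0074), Cdc42 (0.16) and Sirpa (0.16) turned under quantile normalization, and Cdc42 also under upper-quartile scaling (0.0096) and without one library (-0.066 to 0.015). None of these genes passed the threshold where its sign turned. The cause was not tested.

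Same-numbered libraries share only a number: their deviations from the group means correlated at -0.07, 0.02, 0.07 and -0.06, and not every library correlated best with its own number. The replicate block gave 2057 changed genes in place of 2014 and 14 of the role lists in place of 17, and for Mertk an adjusted p of 0.0224, or 0.0454 together with the correction.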
